A study of Equus caballus with 4 samples.

Results

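The genes described here are 10 members of the muscle atrophy programme, out of 24998 gene names on a horse expression array. They comprised the ubiquitin ligase genes FBXO32, TRIM63, FBXO30 and FBXO40, the forkhead transcription factors FOXO1, FOXO3 and FOXO4, the transcription factor KLF15, and the calpain proteases CAPN1 and CAPN3. They were chosen by name, and every probe whose gene name equalled one of these symbols was taken, which gave 30 probes of 60 bases.

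Equine satellite cells (ESC), the stem cells of skeletal muscle, came from the semitendinosus muscle of stallions aged 6 months and were differentiated in culture up to day 3. The HMB-treated cells were kept with 50 µM HMB, a breakdown product of leucine, for 24 h, and met 3 mM hydrogen peroxide (H2O2) in the last 1 h. The control cells had the same 1 h of H2O2 but no HMB, so cells of both groups were damaged by the oxidant, and cells without H2O2 were not analysed here. On each of 4 arrays the HMB-treated RNA was labelled with Cy5 and the control RNA with Cy3. Each array is 1 replicate, and its ratio is HMB-treated over control, so a value above 0 on the log2 scale means a higher level in the HMB-treated cells. No array had the dyes exchanged, so dye and treatment cannot be told apart for any gene. The methods state that the culture with the best viability and fusion was carried forward, and the labels give the control the same replicate name on every array. The p-values therefore measure the spread between these arrays, which may be partly technical.

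Muscle loses protein in disuse, starvation and inflammation largely through the ubiquitin-proteasome system. FOXO factors, when they are not phosphorylated by AKT and held in the cytoplasm, enter the nucleus and switch on the genes of atrogin-1 (FBXO32) and MuRF1 (TRIM63), the ligases that mark muscle proteins for degradation. KLF15, a target of the glucocorticoid receptor, adds to this induction and to amino acid breakdown, while calpains are calcium-dependent proteases that cut sarcomere and membrane-skeleton proteins. HMB is used as a supplement against protein breakdown, and the comparison asks how these genes stood in oxidant-treated cells with and without it.

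Among these genes, FBXO32 was higher in the HMB-treated cells while TRIM63 and FBXO30 were lower, and FOXO1, FOXO3, FOXO4 and CAPN1 did not pass the test with their brightest probe. A probe was tested when the same channel stood well above background on all 4 arrays, and it was called when limma's adjusted p was at most 0.05 and the fold change (FC) at least 1.3. Of the 30 probes, 23 were tested and 9 were called, 3 higher and 6 lower. Over the whole array 28.6% of tested probes were called, 12.1% higher and 16.4% lower. With 1 probe per gene, the brightest one tested, 3 of the 7 tested genes were called, FBXO32 upward and both others downward. These 7 genes had a median log2 ratio of -0.21, against -0.07 over all tested probes. KLF15, FBXO40 and CAPN3 had no tested probe. The spots of the 30 probes included 0 saturated and 0 marked as outliers.

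**Figure D1:**
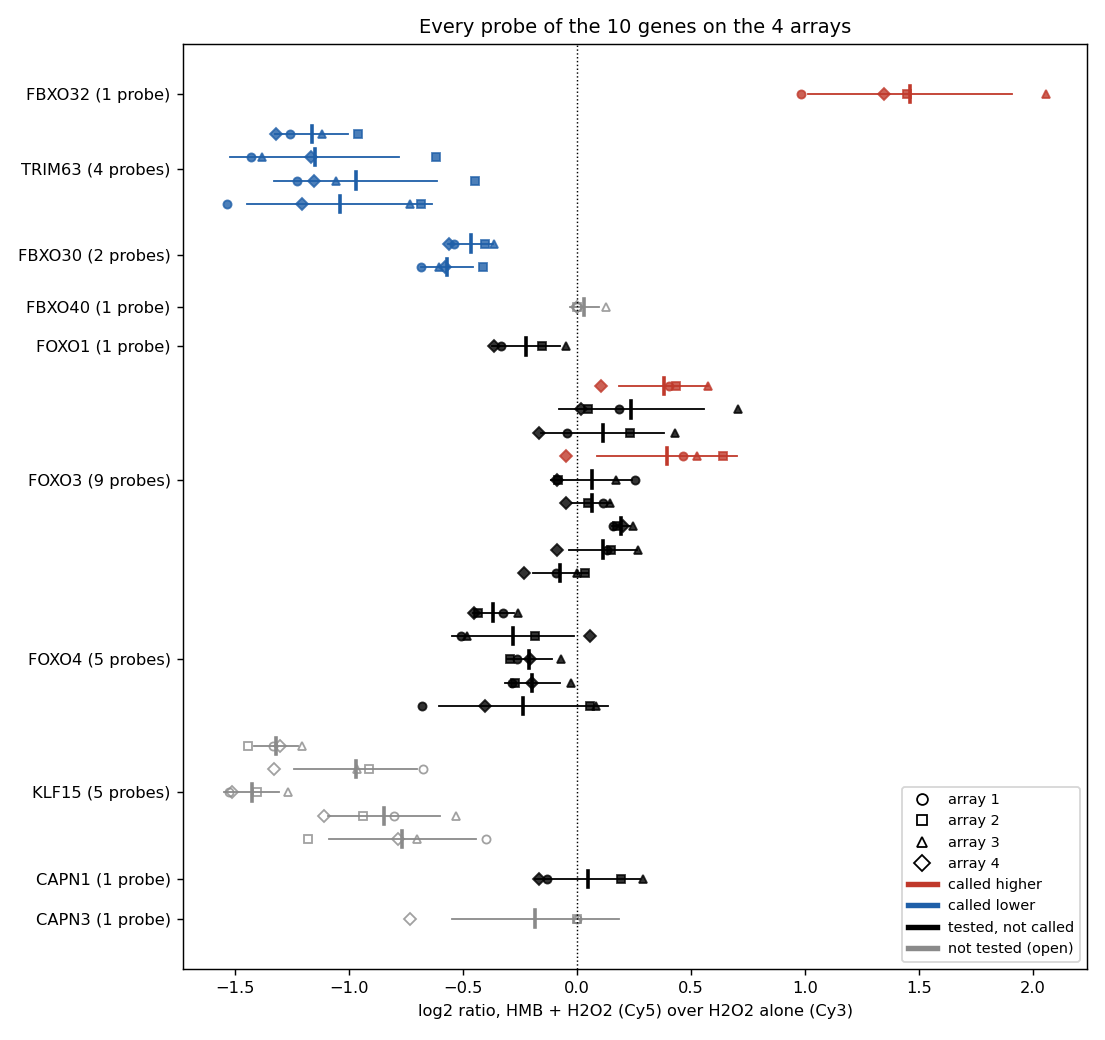
Log2 ratio of HMB-treated over control cells (x axis) for all 30 probes, grouped by gene. Symbols are the 4 arrays, the thick tick is the mean and the thin line is the mean ± SD. FBXO32 lies above 0 on all 4 arrays, and the 4 TRIM63 and 2 FBXO30 probes lie below 0 on all 4. Open grey symbols are the 7 probes that were not tested.

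FBXO32 encodes atrogin-1, the F-box protein that recruits muscle substrates to an SCF ubiquitin ligase. Its probe lies on the minus strand of EquCab1 chr9:61087770-61087829, at base 1356 of the transcript, and the files name no exon or UTR for it. The log2 ratio was 0.98 on array 1, 1.45 on array 2, 2.06 on array 3 and 1.35 on array 4. The processed signal of the control channel was 161, 154, 156 and 131 on arrays 1 to 4. That of the HMB-treated channel was 317, 419, 648 and 333, so the channels did not overlap and the wider spread lay in the HMB-treated cells. The mean log2 ratio was 1.46 ± 0.45 (SD, n = 4), an FC of 2.75 (limma's adjusted p = 9.05e-04). It exceeded the ratios of 97.3% of the tested probes. It was called under all 19 alternative settings, at 0.85 with scaling to spike-in RNA and 0.90 with another background correction (normexp). Normexp was run with an offset of 50 added to both channels, which by construction draws the ratios of dim probes toward 0. Leaving the background in both channels does the same.

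TRIM63 encodes MuRF1, the RING-finger ligase of the sarcomere that ubiquitinates thick-filament proteins. It has 4 probes on the plus strand of chr2, and the sequences show that 3 of them are the same stretch moved by 1 base at a time. Capitals mark the 58 bases that these 3 share, and the first probe, which is brighter, overlaps their start and is in capitals throughout.

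TRIM63 chr2:27768741-27768800: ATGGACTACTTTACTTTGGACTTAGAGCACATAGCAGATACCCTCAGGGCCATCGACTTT
TRIM63 chr2:27768789-27768848: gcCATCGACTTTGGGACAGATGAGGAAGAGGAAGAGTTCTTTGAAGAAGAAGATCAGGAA
TRIM63 chr2:27768790-27768849: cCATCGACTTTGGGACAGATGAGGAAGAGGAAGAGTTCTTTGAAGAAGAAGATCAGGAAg
TRIM63 chr2:27768791-27768850: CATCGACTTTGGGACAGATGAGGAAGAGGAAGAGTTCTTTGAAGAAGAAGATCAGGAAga

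The brightest TRIM63 probe gave log2 ratios of -1.26, -0.96, -1.12 and -1.32 on arrays 1 to 4. Its control signal was 208, 199, 208 and 161, and its HMB-treated signal was 86.9, 102, 95.6 and 64.3. Every HMB-treated value was below every control value. The mean log2 ratio was -1.16 ± 0.16 (SD, n = 4), an FC of 2.24 downward (limma's adjusted p = 1.24e-04), and only 1.43% of tested probes had a lower ratio. The 3 overlapping probes, in the order printed, gave means of -1.15 ± 0.37, -0.97 ± 0.36 and -1.04 ± 0.41 (SD, n = 4), and all 3 were called lower. Array 2 had the value nearest to 0 in each of these 3. On the last of them the HMB-treated channel stood well above background on 2 of the 4 arrays. The 4 probes share bases and spots of the same arrays, so they are not independent measurements of TRIM63. The brightest probe was called under all 19 alternatives, but its size fell to -0.48 with normexp and -0.64 without background correction, and with normexp the 3 overlapping probes were no longer called.

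Atrogin-1 and MuRF1 are commonly measured side by side as the markers of atrophy, and here they moved in opposite directions. The log2 ratio of FBXO32 exceeded that of TRIM63 by 2.24, 2.41, 3.18 and 2.67 on arrays 1 to 4, a mean of 2.62 ± 0.41 (SD, n = 4). This distance is taken within each array, so a shift of the whole array does not move it (2.67 with scaling to spike-in RNA), but it was 1.38 with normexp and 1.83 without background correction.

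**Figure D2:**
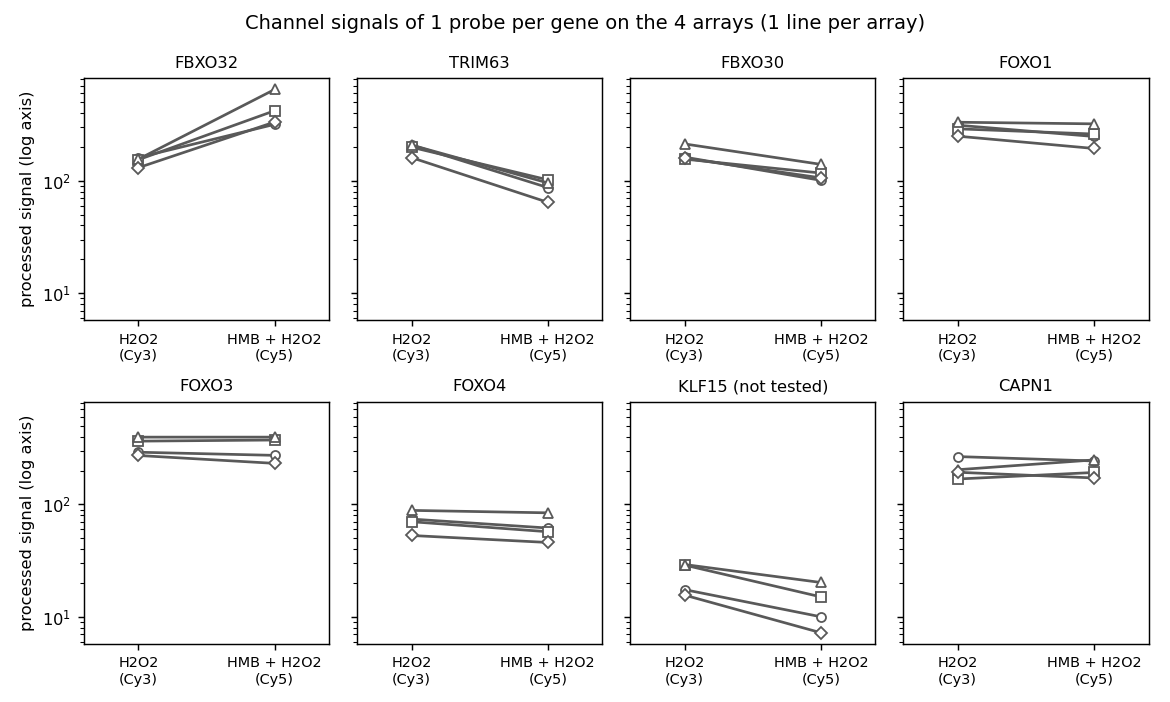
Processed signal (y axis, log scale) of the control channel and the HMB-treated channel for 1 probe of each of 8 genes, with 1 line per array (circle, square, triangle and diamond for arrays 1 to 4). The FBXO32 lines rise on all 4 arrays and those of TRIM63, FBXO30, FOXO1 and FOXO4 fall. The signals of different probes cannot be set against each other.

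FBXO30 encodes MUSA1, an F-box ligase that is induced in denervated muscle and restrained by BMP signalling. Both of its probes were called lower. They lie next to each other on chr31, in the order below, with no shared base, so unlike those of TRIM63 they read separate stretches of the transcript.

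FBXO30 chr31:20412866-20412925: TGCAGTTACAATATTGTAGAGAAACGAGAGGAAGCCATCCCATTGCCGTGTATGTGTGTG
FBXO30 chr31:20412926-20412985: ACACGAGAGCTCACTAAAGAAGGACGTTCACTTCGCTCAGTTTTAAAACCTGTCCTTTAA

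The second of these was the brighter and gave log2 ratios of -0.69, -0.41, -0.60 and -0.58, a mean of -0.57 ± 0.12 (SD, n = 4; limma's adjusted p = 0.00125). Its control signal was 162, 156, 212 and 159 and its HMB-treated signal 101, 117, 140 and 106, with no overlap between the channels. The first probe gave -0.54, -0.40, -0.36 and -0.56, with a mean of -0.47 ± 0.10 (SD, n = 4; limma's adjusted p = 0.0023). The call of FBXO30 was lost when limma tested against the FC threshold itself (adjusted p = 0.114), with normexp (-0.22) and without background correction (-0.32).

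FBXO40 encodes a muscle-restricted F-box protein that targets IRS1, the adaptor of insulin and IGF1 signalling. Its probe, on the minus strand at chr19:33772515-33772574, was not well above background in either channel of any array. The control signal was 3.88, 4.40, 10.09 and 4.16 and the HMB-treated signal 5.66, 5.89, 11.0 and 7.18. The deposited ratio was 0 on arrays 1, 2 and 4 and 0.13 on array 3. Therefore no difference in FBXO40 was detectable with this probe.

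FOXO1, the FOXO factor whose excess is sufficient to cause muscle loss in mice, has 1 probe at chrUn:282106935-282106994. Its log2 ratio was -0.33, -0.15, -0.05 and -0.36 on arrays 1 to 4, below 0 on all 4. The control signal was 312, 289, 331 and 249 and the HMB-treated signal 247, 260, 320 and 193, so the channels overlapped. The mean was -0.22 ± 0.15 (SD, n = 4), or 1.17-fold downward, and FOXO1 was not called (limma's adjusted p = 0.0532).

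FOXO3, the factor that drives FBXO32 and autophagy genes in starved muscle, has 9 probes in 3 stretches of 1 transcript, all tested. The first stretch holds 5 probes that are the same sequence moved by 1 base at a time, and they are shown because they did not give the same call. Capitals mark the 56 bases shared by all 5.

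FOXO3 chr10:53239975-53240034: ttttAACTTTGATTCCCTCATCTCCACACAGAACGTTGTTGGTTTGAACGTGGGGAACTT
FOXO3 chr10:53239976-53240035: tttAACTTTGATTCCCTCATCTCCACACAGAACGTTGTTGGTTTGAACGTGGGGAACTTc
FOXO3 chr10:53239977-53240036: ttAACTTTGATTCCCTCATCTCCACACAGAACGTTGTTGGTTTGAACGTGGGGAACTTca
FOXO3 chr10:53239978-53240037: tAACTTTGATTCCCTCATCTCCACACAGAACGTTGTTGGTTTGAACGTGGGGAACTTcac
FOXO3 chr10:53239979-53240038: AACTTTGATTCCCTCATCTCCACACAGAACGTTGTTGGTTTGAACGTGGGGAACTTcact

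The 5 means, in the order printed, were 0.38 ± 0.20, 0.24 ± 0.32, 0.11 ± 0.27, 0.39 ± 0.31 and 0.06 ± 0.18 (SD, n = 4). The first and the fourth were called higher, with limma's adjusted p of 0.0145 and 0.0358 and FCs of 1.301 and 1.315, just inside the threshold. The first gave 0.41, 0.43, 0.57 and 0.11 on arrays 1 to 4, and the fourth gave 0.46, 0.64, 0.53 and -0.05, so array 4 was the lowest in both. Each call was lost when array 1, 2 or 3 was left out, and with the methods' t-test, treat, centring on the median, normexp, no background correction or no filter on dim probes. The control signals of these 5 probes ranged from 37.7 to 76.5, and their HMB-treated signals from 38.1 to 91.3.

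The 4 FOXO3 probes further downstream start at bases 1837, 1867, 1887 and 2030 of the transcript, against 1296 to 1300 for the first 5. Their means were 0.06 ± 0.09, 0.19 ± 0.04, 0.11 ± 0.15 and -0.07 ± 0.12 (SD, n = 4), and 0 of them were called. The second had a limma adjusted p of 0.0356 and was above 0 on all 4 arrays, but its FC of 1.14 was under the threshold. The last is the brightest FOXO3 probe and stands for the gene, with ratios of -0.09, 0.03, 0.00 and -0.23 (limma's adjusted p = 0.426). Its control signal was 291, 365, 396 and 272 and its HMB-treated signal 273, 374, 397 and 232. FOXO3 therefore had a mean close to 0 with that probe, 0.17 as the mean of its 9 probes, and -0.72 (called lower) when the arrays were scaled to spike-in RNA.

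**Figure D3:**
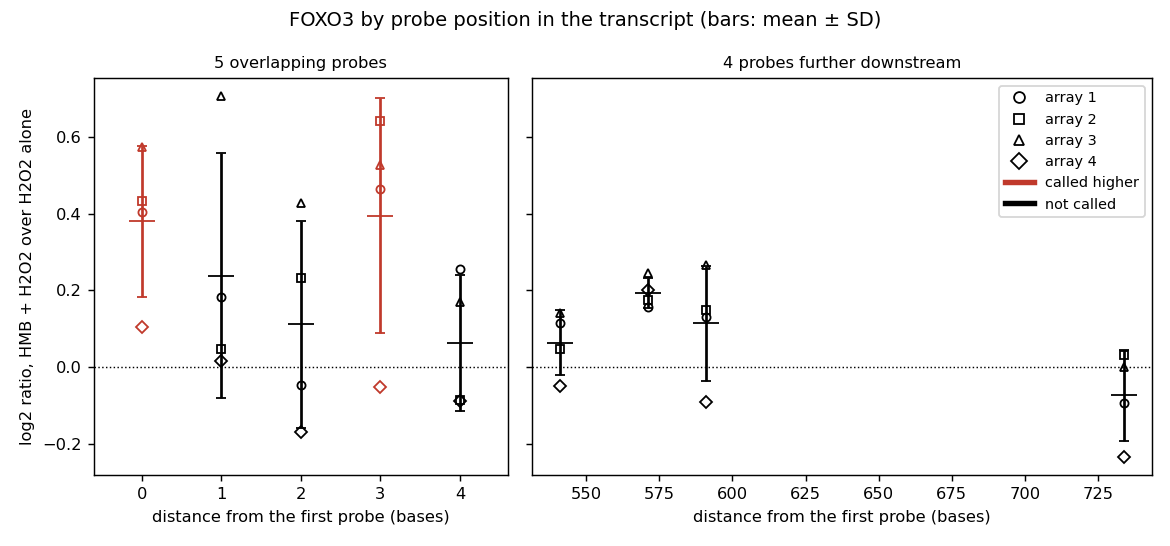
Log2 ratio of HMB-treated over control cells for the 9 FOXO3 probes (y axis) by distance from the first probe in bases (x axis, broken between the panels). Symbols are arrays, bars are the mean ± SD over 4 arrays. The 5 overlapping probes range from 0.06 to 0.39 and the downstream probes from -0.07 to 0.19.

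FOXO4, the third FOXO factor, has 5 probes that overlap in the same way at chrUn:261576397-261576460. All 5 means were below 0, from -0.37 to -0.20, and 0 were called. The probe of FOXO4 nearest to the threshold had ratios of -0.33, -0.43, -0.26 and -0.45, with limma's adjusted p at 0.00524 but its FC at 1.29. The brightest had -0.26, -0.30, -0.07 and -0.21, a mean of -0.21 ± 0.10 (SD, n = 4; limma's adjusted p = 0.0416, FC of 1.16). Its control signal was 74.1, 70.2, 88.5 and 53.0 and its HMB-treated signal 61.7, 57.2, 84.2 and 45.9. On each array the HMB-treated value was the lower, but the ranges of both channels overlapped.

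KLF15 has 5 overlapping probes at chrUn:265915397-265915460. The first and the last are shown with the 56 bases common to all 5 in capitals, since the whole evidence on KLF15 rests on this stretch.

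KLF15 chrUn:265915397-265915456: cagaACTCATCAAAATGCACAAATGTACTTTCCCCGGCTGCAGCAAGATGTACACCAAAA
KLF15 chrUn:265915401-265915460: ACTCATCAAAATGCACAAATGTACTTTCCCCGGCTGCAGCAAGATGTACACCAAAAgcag

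All 5 KLF15 ratios were below 0 on all 4 arrays, with means from -1.43 to -0.77, but none of the probes was bright enough to be tested. The HMB-treated channel was not well above background on any array for any of them, and on 1 to 4 arrays per probe its signal had been replaced by a surrogate. The control channel was well above background for 1 probe on 2 of the 4 arrays. That KLF15 probe had a control signal of 17.5, 28.9, 29.2 and 15.6 and an HMB-treated signal of 10.0, 15.1, 20.2 and 7.23. For a comparison, the HMB-treated signal of each array was set at the lowest level that counts as well above background there. The mean control signal of this probe was then 1.24-fold higher. That value for KLF15 averages all 4 arrays, including the 2 whose control signal was itself not well above background, so it is not a lower bound. When the filter on dim probes was left out, all 5 were called lower. The HMB-treated signals behind these calls were at background and the probes overlap, so the calls do not measure a fall of KLF15.

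CAPN1, the large subunit of mu-calpain, has 1 probe, whose place on the plus strand, chr12:15687293-15687704, spans 412 positions for 60 bases and so runs over an intron.

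CAPN1: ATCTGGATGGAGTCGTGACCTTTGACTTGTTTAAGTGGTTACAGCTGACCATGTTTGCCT

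CAPN1 gave ratios of -0.13, 0.19, 0.29 and -0.17, above 0 on 2 arrays and below 0 on the other 2, with a mean of 0.05 ± 0.23 (SD, n = 4; limma's adjusted p = 0.722). Its control signal was 266, 168, 204 and 193 and its HMB-treated signal 243, 192, 249 and 172. CAPN3, the muscle-specific calpain, has 1 probe on the minus strand at chr1:143698680-143699112 that was not well above background in either channel of any array. Its control signal was 5.42, 6.25, 6.57 and 16.4 and its HMB-treated signal 8.48, 7.96, 7.56 and 9.86. The ratio of CAPN3 was 0 on arrays 1 to 3 and -0.73 on array 4.

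**Figure D4:**
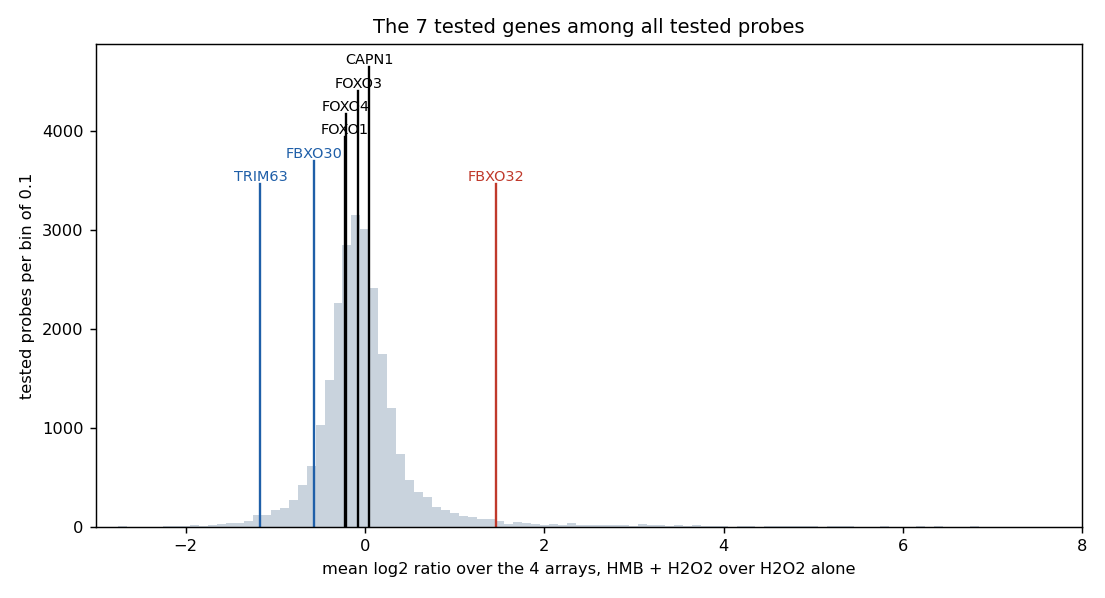
Number of tested probes (y axis) by mean log2 ratio over the 4 arrays (x axis, bins of 0.1), with vertical lines at the 7 tested genes. FBXO32 and TRIM63 stand on opposite flanks, and the FOXO genes and CAPN1 lie within the central peak.

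The genes around these members were taken from 6 lists written from general knowledge, 116 genes of which 95 were on the array by symbol and 76 were tested. The test called 36 of the 76, with 13 up and 23 down, at a median log2 ratio of -0.14, beside 28.6% of probes called over the array (12.1% higher, 16.4% lower). The split moved with the scaling, to 17 up and 14 down with centring on the median and to 3 up and 57 down with spike-in RNA. With spike-in RNA 19282 of 24663 tested probes were called lower over the array. The counts with that scaling given below for each list stand beside this share. When both channels had to stand well above background, 31 of 69 genes were called, 12 up and 19 down. Each gene is again given by its brightest tested probe.

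Among other ligases and cofactors of muscle wasting, 1 of 14 tested genes was called higher and 4 lower, with a median of -0.27. The share of 35.7% was near the 28.6% over the array, and the counts were 0 and 13 with spike-in scaling and 0 and 2 with normexp. TRIM55, which encodes MuRF2, a close relative of MuRF1 in the sarcomere, gave -1.31, -1.17, -1.12 and -1.17, a mean of -1.19 ± 0.08 (SD, n = 4; limma's adjusted p = 4.47e-05). TRIM54, which encodes the related MuRF3, and WWP1, a HECT-type ligase, were both lower, at -0.51 on average. TRIM32, a ligase of the thin filament and desmin, rose by 0.55 ± 0.15 with 5 of 5 probes called, but stood at -0.15 when the arrays were scaled to spike-in RNA. The genes of all 3 MuRF proteins, TRIM63, TRIM55 and TRIM54, were lower, and TRIM54, WWP1 and TRIM32 lost their calls with treat, normexp and no background correction.

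The list of proteins known as substrates of atrogin-1 or MuRF1 had 0 of 7 tested genes called higher and 5 called lower, beside 12.1% and 16.4% over the array, with a median of -0.54. With spike-in scaling the counts were 0 and 6. DES, the intermediate filament desmin, gave -1.36, -1.32, -0.79 and -1.40 and a mean of -1.22 ± 0.29 (SD, n = 4). ACTA1, skeletal muscle actin, was lower at -1.10 ± 0.22 and CKM, muscle creatine kinase, at -0.93 ± 0.22 (SD, n = 4). MYOD1, the myogenic factor that atrogin-1 degrades, stood at 0.32 ± 0.25 and was not called (limma's adjusted p = 0.0441, under the FC threshold).

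Of the regulators of FOXO activity, 2 of 17 tested genes were called higher and 5 lower, beside 12.1% and 16.4% over the array, with a median of -0.14. With spike-in scaling the counts were 0 and 14, and with both channels well above background 2 and 2 of 13. IGF1, the growth factor that holds FOXO in the cytoplasm through AKT, passed the filter only through the control channel, since its HMB-treated channel was not well above background on any array. With the deposited background subtraction IGF1 was 1.94-fold lower when that channel was set at the lowest level that counts as well above background. This value was calculated as that for KLF15 was, but with the control channel well above background on all 4 arrays. Signals above that level can still fail to count. On array 1 an HMB-treated signal of 36.5 (TRIM63) was not well above background while 35.3 (FOXO4) was. The value for IGF1 is therefore not a lower bound. No p-value is given for IGF1, since the HMB-treated side of each ratio was at background. The log2 ratio of IGF1 was -0.14 with normexp and -0.26 without background correction, and it was then not called. PRKAA2, a catalytic subunit of AMPK, was lower at -0.76 ± 0.20 and AKT2, a kinase that phosphorylates FOXO, at -0.62 ± 0.21 (SD, n = 4). Their HMB-treated channel stood well above background on 1 and 2 of the 4 arrays, so these ratios are uncertain, and they were -0.19 and -0.17 with normexp. SGK1, another FOXO kinase, and JUNB, which inhibits FOXO3 on the FBXO32 promoter, were higher by 0.44 ± 0.07 and 0.45 ± 0.24, but turned to -0.15 and -0.14 with scaling to spike-in RNA, and JUNB was not called when array 3 was left out. With normexp or no background correction, none of the 5 lower calls of this list remained, as 0 genes were called lower.

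**Figure D5:**
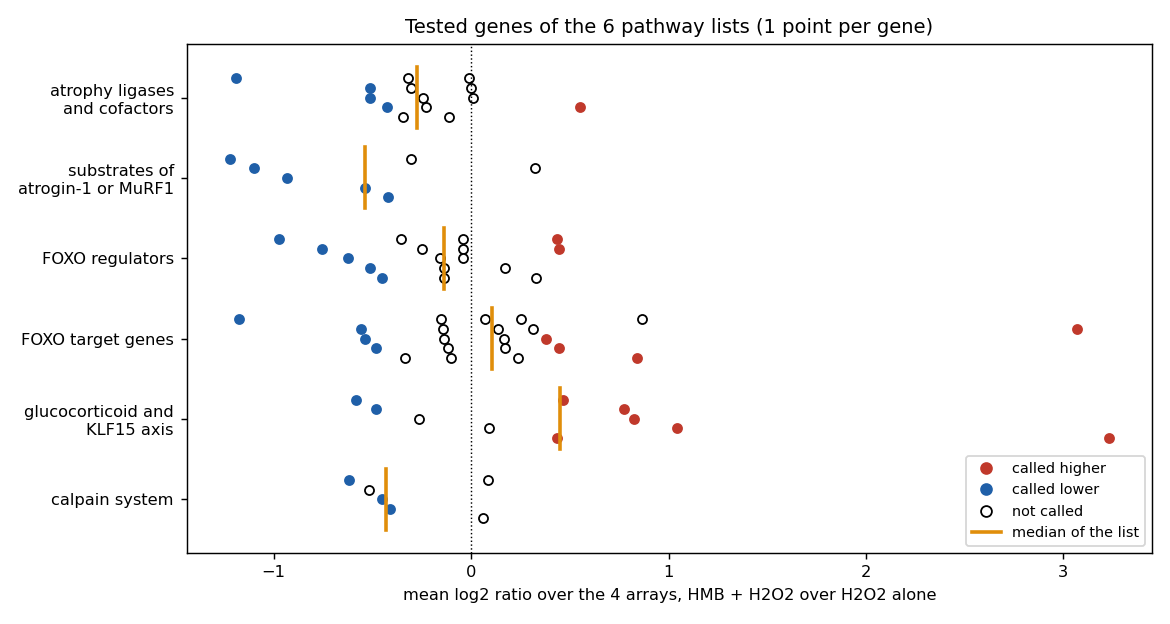
Mean log2 ratio over the 4 arrays (x axis) of each tested gene in the 6 lists (rows), with the median of each list as an orange line. SOD2 and HSD11B1 (the latter with its control channel at background) stand apart above 3, and the medians run from -0.54 to 0.45. With scaling to spike-in RNA the median of every list was below 0.

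Of the known FOXO target genes, 4 of 22 tested genes were called higher and 4 lower, beside 12.1% and 16.4% over the array, with a median of 0.10. The counts were 7 and 1 with centring on the median, 1 and 4 with normexp, and 1 and 14 with spike-in scaling, where the median turned to -0.54. SOD2, the mitochondrial superoxide dismutase, was the highest, with ratios of 2.94, 3.24, 3.23 and 2.86 and a mean of 3.07 ± 0.19 (SD, n = 4; limma's adjusted p = 3.36e-06). All 10 of its probes were called. GABARAPL1, an autophagosome protein, rose by 0.84 ± 0.52, with 1.52 on array 1 as its highest value, and was not called with spike-in scaling, the methods' t-test, treat, normexp or no filter. IRS2, an insulin receptor substrate, rose by 0.45 ± 0.33, but stood at -0.22 with scaling to spike-in RNA and lost its call when array 2, 3 or 4 was left out. SESN1, a stress-induced inhibitor of mTORC1, was lower, with -1.50, -1.37, -1.11 and -0.73 and a mean of -1.18 ± 0.34 (SD, n = 4), which was -0.39 with normexp and was still called. ZFAND5, a zinc-finger protein that stimulates the proteasome, and GADD45A, a growth-arrest gene induced in atrophy, were lower at -0.56 ± 0.05 and -0.54 ± 0.22. Both lost their calls with treat and with centring on the median, and GADD45A also with the methods' t-test.

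The glucocorticoid and KLF15 axis had 6 of 10 tested genes called higher and 2 lower, beside 12.1% and 16.4% over the array, with a median of 0.45. With scaling to spike-in RNA this turned to 2 higher and 4 lower and a median of -0.16. When both channels had to stand well above background, 5 of 8 tested genes were called higher and 2 lower. HSD11B1, the enzyme that reactivates glucocorticoids inside cells, passed the filter only through the HMB-treated channel, since its control channel was not well above background on any array. For a comparison, its control signal was set at the lowest level that counts as well above background on each array. With the deposited background subtraction HSD11B1 was then 9.16-fold higher in the HMB-treated cells. Signals above that level can still fail to count as well above background, so this value is not a lower bound. No p-value is given for it, since the control side of each ratio was at background. The log2 ratio of HSD11B1 was 2.49 with scaling to spike-in RNA, 1.41 without background correction and 0.99 with normexp, each of them a smaller rise. It was called in all 3, again through the HMB-treated channel alone. GLUL, glutamine synthetase, had 1.14, 1.17, 1.05 and 0.82, an FC of 2.06 on average, and DUSP1, a phosphatase of MAP kinases, rose by 0.83 ± 0.18 (SD, n = 4), a call lost with scaling to spike-in RNA. TSC22D3, the glucocorticoid-induced leucine zipper, was lower at -0.58 ± 0.33, with 1 of 2 probes called. GPT2, an alanine aminotransferase that KLF15 activates, was lower at -0.48 ± 0.16, with 5 of 5 probes called. Both lost their calls with treat, normexp and no background correction, TSC22D3 also with the methods' t-test and no filter, and GPT2 also with centring on the median.

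In the calpain system, 0 of 6 tested genes were called higher and 3 lower, beside 12.1% and 16.4% over the array, with a median of -0.43. With spike-in scaling the counts were 0 and 6. CAPN2, the large subunit of m-calpain, was lower at -0.41 ± 0.09, CAPN6, a calpain without protease activity, at -0.45 ± 0.18, and CAPN11 at -0.62 ± 0.23 (SD, n = 4). Of their tested probes, 2 of 4 were called for CAPN2, 4 of 5 for CAPN6 and 2 of 3 for CAPN11. The HMB-treated channel of CAPN6 stood well above background on 2 of the 4 arrays. The 3 calls of this list were lost with treat, with normexp and without background correction, and that of CAPN2 also with centring on the median (-0.22).

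Some markers of muscle cells and of fibroblasts also differed between the groups. The marker counts are given for the fit on the deposited ratios only, where 12.1% of tested probes were called higher over the array and 16.4% lower. Of 6 myogenic markers on the array, all 6 stood well above background in both channels and 4 were called lower. MYF5 was lower at -1.49 ± 0.34 and MYH3, embryonic myosin, at -1.38 ± 0.33 (SD, n = 4). The other lower calls were DES and CKM, with the same probes as in the substrate list. MYOG stood at 0.03 ± 0.22 and MYOD1 at 0.32 ± 0.25 (SD, n = 4), and neither was called. The summed signal of the 6 was 105056 to 118895 in the control and 37250 to 60610 in the HMB-treated channel. This sum is mostly MYH3 and DES, whose mean control signals were 83384 and 19520, so it says little of MYOG and MYOD1. Of 4 fibroblast markers, 3 were called higher, PDGFRA by 1.49 ± 0.26, DCN by 0.77 ± 0.18 and THY1 by 0.76 ± 0.12. COL3A1 stood at 0.06 ± 0.29 with its brightest probe, which was not called, but 3 of its 7 tested probes were called. The summed signal of the 4 fibroblast markers was 182733 to 212091 in the control and 208963 to 319800 in the HMB-treated channel. This sum was mostly COL3A1 (mean control signal of 146273). Fewer muscle cells and less muscle RNA per cell cannot be told apart in such samples, and the part of either in the ratios of TRIM63, TRIM55 and the substrate genes was not tested. The 3 endothelial markers were not well above background on any array. Of the 3 adipocyte markers none was well above background on all 4 arrays, and of 2 leukocyte markers CD68 was called higher (0.88 ± 0.20) and CD14 was not (0.20 ± 0.19).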

How the data were processed

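The deposited scanner files give the intensity of each spot in both channels, with background subtracted and linear and lowess normalization applied within the array (Feature Extraction 10.10.1.1 in the file headers, build EquCab1). Their log10 values, as the authors deposited them, are ratios of the normalized Cy5 over Cy3 signals, and the table of normalized values equals them within 3.96e-05. The log2 ratios were calculated here from these log10 values. Of 43803 non-control spots per array, 57.6% to 60.6% were well above background in Cy3 and 55.2% to 61.8% in Cy5. Signals at background had been replaced by a surrogate, which compresses the ratio of a dim probe. The number of arrays limits the precision.

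The software was limma 3.58.1, statmod 1.5.0 and the data.table package at 1.17.8 under R 4.3.3. The test was an intercept model with empirical Bayes moderation over 24673 tested probes and Benjamini-Hochberg correction. A tested probe had at least 3 unmarked ratios and 1 channel well above background on all 4 arrays. The fit was tested on simulated data first. The genes named are the 10 members and, from each list, the up to 3 called genes with the largest rise and fall, plus marker genes. MYOD1, MYOG, COL3A1 and CD14, which were not called with their brightest probe, were named after their values were seen. The members and lists were chosen with earlier results of these data known. The alternatives were other tests (the methods' t-test, treat, trend with robust moderation, array weights), background corrections, scalings (including spike-in RNA), filters, probe averages, a GC correction, the authors' table, and each replicate left out.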

Additional observations from a re-analysis of the deposited data

Results flagged for a closer look

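On each probe of the 10 genes and for each named gene of the lists, the 4 arrays were examined for 1 value far from the others by Dixon's criterion. Of 56 sets of 4 values, 5 met it, while chance gives about 1 in 20. Of these, 2 were probes at background, where 3 arrays carried the same ratio of 0: FBXO40 with a mean of 0.032 and array 3 apart, and CAPN3 with a mean of -0.18 and array 4 apart. The other 3 were ZFAND5 (mean -0.56), DES (mean -1.22) and CKM (mean -0.93), in each of which array 3 was nearest to 0, and all 3 genes were still called when array 3 was left out.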

How the results depend on the processing

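FBXO32 (0.85 to 1.62) and TRIM63 (-1.82 to -0.48) kept their direction and call under all 19 alternatives, and FBXO30 kept its direction under all 19 and its call under 16. Of the genes that were not called, CAPN1 turned to -0.60 with scaling to spike-in RNA, to -0.0031 without replicate 2 and to -0.035 without replicate 3 (0.117 at most, without replicate 4), while FOXO3 turned to 0.026 with centring on the median in place of lowess and to 0.17 as the mean over its probes. Scaling to spike-in RNA moved the median of all tested probes from -0.07 to -0.67. Of 24663 probes tested with it, 20266 were called, 984 higher and 19282 lower. With this scaling 7 member genes (1 higher and 6 lower) and 60 of 76 genes of the lists were called, against 3 and 36. These counts are therefore not particular to the members or the lists. FOXO1 (-0.84), FOXO3 (-0.72) and FOXO4 (-0.94) were called lower under that scaling only. Of the 26 named genes of the lists, 8 (ACTA1, CKM, DES, GLUL, HSD11B1, SESN1, SOD2 and TRIM55) were called under every alternative that tested them. HSD11B1 was tested only through its HMB-treated channel, and not when both channels had to stand well above background. The genes of the lists called were 11 with treat, 18 with normexp and 20 without background correction. The last 2 settings draw the ratios of dim probes toward 0, through the offset of 50 in normexp and the background left in. Without 1 replicate each, 3 member genes and 34 to 38 genes of the lists were called. Over all probes, 42.5% of calls were higher, against 4.86% with spike-in scaling, 63.3% with centring on the median (median 0.07), 55.0% with normexp, 60.1% without background correction and 54.6% with treat. Which scaling is the right one was not tested. All arrays had 1 group and shared 1 slide, so no batch could be examined. The test on within-array ratios pairs both groups by array, and no further replicate block could be added. Signal over background limits KLF15, FBXO40 and CAPN3.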
